A study of Mus musculus with 24 samples.

Results

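The neuregulin and ErbB genes form a family of growth factors and their receptor tyrosine kinases. The 9 described here were chosen by name: the ligands Nrg1, Nrg2, Btc, Hbegf and Areg and the receptors Egfr, Erbb2, Erbb3 and Erbb4. They are 9 of the 24421 genes in the RNA-seq count table and 9 of the 24411 in the MeRIP-seq count table, and 17 entries in the lists of m6A sites (7 of 18677 after nerve lesion and 10 of 14446 in naive ganglia) fell in them. The samples were lumbar (L4/5) dorsal root ganglia (DRG) of C57BL/6 mice, which hold the cell bodies of the sensory neurons of the sciatic nerve. RNA-seq compared mice with a conditional deletion of Mettl14 (Mettl14cKO, genotype given as Mettl14-/-) and wild-type mice. Each genotype was taken 1 day after a sciatic nerve lesion (SNLD1) or naive, with 3 libraries in each of the 4 groups. The Cre line behind the deletion and the age of the mice are not stated in the labels used here, and the protocol names a sham operation where the titles say naive. In wild type only, MeRIP-seq, in which an antibody to m6A pulls down methylated RNA, gave 3 pulled-down (IP) and 2 input libraries per condition. Also in wild type only, miCLIP, which marks single m6A bases through mutations left by the cross-linked antibody, gave 1 list for the lesion (SNL, day not stated) and 1 for naive ganglia.

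ErbB receptors signal in pairs. Neuregulins bind ErbB3 and ErbB4, ErbB2 has no known ligand of its own and serves as the partner of the others, and ErbB3 has a kinase too weak to signal without such a partner. Amphiregulin (Areg) binds EGFR, while betacellulin (Btc) and heparin-binding EGF-like growth factor (Hbegf) bind both EGFR and ErbB4. In peripheral nerve, Nrg1 on axons signals to ErbB2 and ErbB3 on Schwann cells, which sets how much myelin they make. Mettl14 is the RNA-binding partner of Mettl3 in the enzyme that writes m6A on mRNA.

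RNA-seq libraries held 5707837 to 12639160 counts, and MeRIP-seq libraries 846785 to 19653733. Levels are CPM, counts scaled to a common library size with TMM factors, so they compare 1 gene between libraries and not 1 gene with another. Mettl14 itself stood at 14.2 to 18.9 CPM in the 6 Mettl14cKO libraries, against 19.4 to 24.1 CPM in the 6 wild-type libraries, a difference that did not pass in either condition (adjusted p = 0.345 at SNLD1 and 0.316 in naive ganglia, edgeR quasi-likelihood test). The lesion markers Atf3 and Sox11 rose in both genotypes (adjusted p between 2.49e-09 and 8.75e-05). Each RNA-seq group held libraries with and without transcripts of the Y chromosome. Mettl14cKO SNLD1 library 1 held both Y-linked (130.2 CPM) and Xist (8.52 CPM) transcripts, and the other 11 mainly one or the other. In MeRIP-seq the IP libraries numbered 3 correlated at 0.731 to 0.871 with the inputs (Spearman, over 6917 genes), but at 0.367 to 0.457 with IP libraries 1 and 2. The IP over input ratios are therefore given with and without the IP libraries numbered 3. IP libraries 1 and 2 varied too: they correlated at 0.475 to 0.943 with each other and at 0.195 to 0.439 with the inputs. The inputs correlated with each other at 0.693 to 0.972. Libraries are of whole ganglia, where fewer cells of a type and less RNA per cell cannot be told apart. Whether replicates are different animals is not labelled. Since each RNA-seq group mixed libraries with and without Y-linked transcripts, its libraries did not all come from 1 animal. The p-values cover only the spread between these libraries, which may be technical in part in RNA-seq and wholly in MeRIP-seq.

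The short sequences around the m6A sites of 3 of the genes are shown because they say which bases the miCLIP lists mark. Each is the 5-mer given with the site in the authors' lists, 5′ to 3′ on the strand of the site, with the listed base, which is the central A, in capitals.
Nrg1 chr8:31918054 (minus strand, in both lists): ggAct
Nrg1 chr8:31917902 (minus strand, naive list): ggAca
Nrg1 chr8:31918127 (minus strand, naive list): agAcc
Nrg1 chr8:31917703 (minus strand, SNL list): gaAcc
Nrg1 chr8:31818303 (minus strand, naive list): gaAcc
Erbb2 chr11:98436905 (plus strand, SNL list): agAcc
Erbb2 chr11:98436920 (plus strand, naive list): tgAca
Erbb3 chr10:128572919 (minus strand, SNL list): ggAcc
Erbb3 chr10:128569758 (minus strand, SNL list): agAcc
Erbb3 chr10:128569341 (minus strand, SNL list): gaAca
Positions are of the mm10 build. The site that both lists share, in Nrg1, reads GGACT, the 5-mer of 11.1% of all SNL sites and 11.0% of all naive sites. In all, 3 of these 10 sites start with GGA, 3 with AGA, 3 with GAA and 1 with TGA.

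Of the 9 genes, 7 had enough counts to be tested in RNA-seq (all but Nrg2 and Erbb4), and 1 of them, Nrg1, differed with genotype. At SNLD1, 1 of 7 was called, where 1.46% of the 13291 genes tested were called in either direction and 0.948% were higher. In naive ganglia 1 of 7 was called, where the shares were 0.286% in either direction and 0.173% higher. After injury no member passed in wild type, where 1.02% of all genes did, nor in Mettl14cKO, where 0.685% did. At an unadjusted p under 0.05 the members were Areg in wild type (7.34% of all genes) and none in Mettl14cKO (10.6%). DESeq2 called no member in either, where it called 202 of 16294 genes in wild type and 188 of 13442 in Mettl14cKO. Between genotypes the members at an unadjusted p under 0.05 were Nrg1 and Areg at SNLD1 (14.4% of all genes) and Nrg1 in naive ganglia (7.6%). The difference between the injury effects of the 2 genotypes passed for no gene (0%), with 492 genes (3.7%) and no member at an unadjusted p under 0.05. DESeq2 called 3 genes there and no member.

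Nrg1 was the ligand that changed. At SNLD1 it stood at 74.6, 71.9 and 73.5 CPM in Mettl14cKO libraries, against 24.7, 19.8 and 27.2 CPM in wild-type libraries. In naive ganglia it stood at 58.0, 112 and 87.2 CPM in Mettl14cKO libraries, against 33.4, 23.0 and 34.5 CPM in wild-type libraries. Every Mettl14cKO library was above every wild-type library in both conditions, as in 9.66% of genes at SNLD1 and 6.11% in naive ganglia, and the 3 Mettl14cKO libraries at SNLD1 lay close together while those of naive ganglia were spread out. The fitted difference was 3.07-fold at SNLD1 (95% interval 2.22 to 4.24, log2 1.62, SE 0.22, adjusted p = 0.00145, edgeR). It was 2.82-fold in naive ganglia (95% interval 2.05 to 3.87, log2 1.49, SE 0.22, adjusted p = 0.00359). No single library carried this: with any 1 library left out the log2 difference lay between 1.496 and 1.73 at SNLD1 and between 1.24 and 1.71 in naive ganglia, and passed each time. Without Mettl14cKO library 1, the one with both Y-linked and Xist transcripts, it was 1.61 at SNLD1 (adjusted p = 0.0107). With the share of Y-linked transcripts as a covariate it was 1.64 at SNLD1 (adjusted p = 0.00141) and passed in naive ganglia as well (adjusted p = 0.00319).

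**Figure D1:**
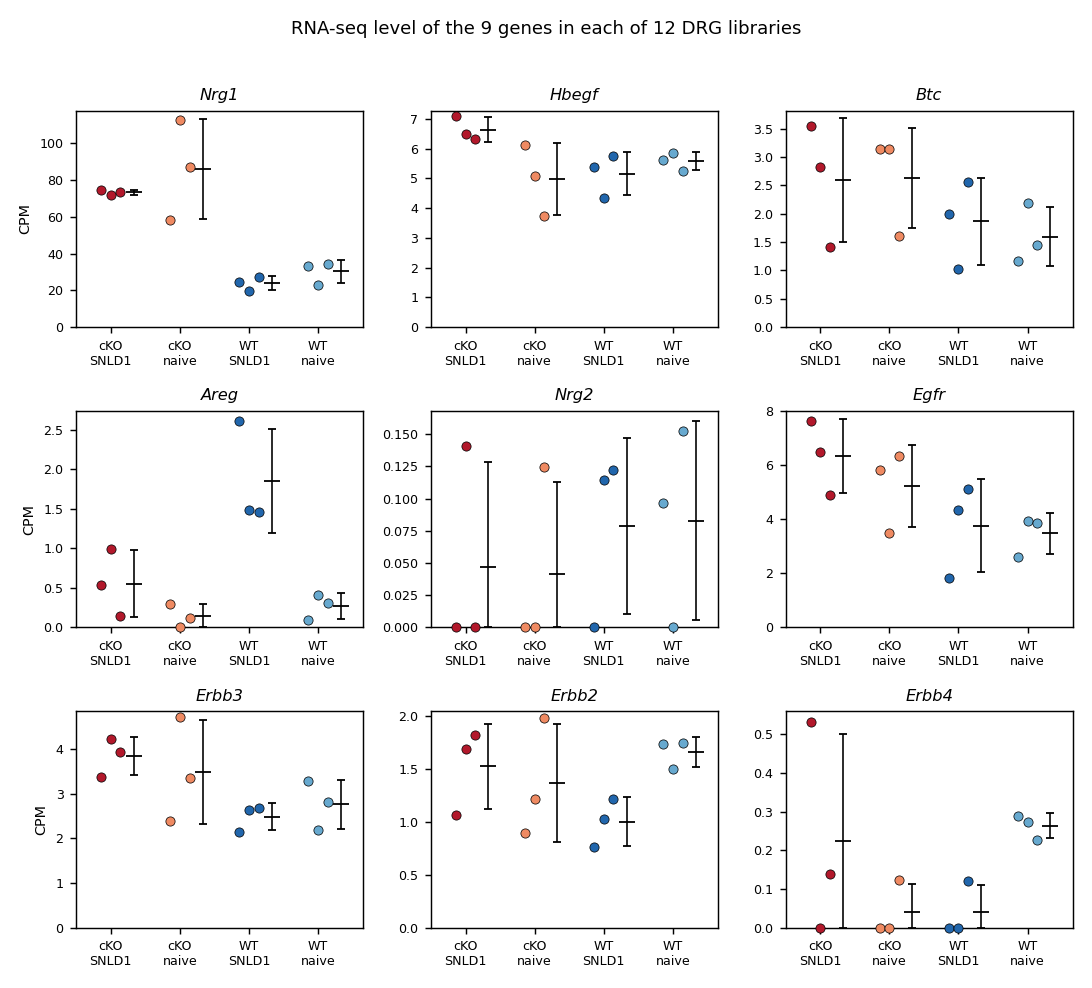
RNA-seq level of each gene in CPM (vertical axis, from 0, own scale per gene) in the 12 libraries. Points are libraries, the dash and bar beside them are the mean and SD (n = 3, cut at 0), and cKO stands for Mettl14cKO. For Nrg1 the 6 cKO points lie between 58.0 and 112 CPM and the 6 wild-type points between 19.8 and 34.5 CPM, while the points of most other genes intermingle.

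The lesion itself left the Nrg1 level without a call. In Mettl14cKO it averaged 73.3 ± 1.37 CPM at SNLD1 and 85.9 ± 27.2 CPM in naive ganglia (SD, n = 3 each; log2 −0.23, SE 0.21, adjusted p = 0.757). In wild type it averaged 23.9 ± 3.77 CPM at SNLD1 and 30.3 ± 6.32 CPM in naive ganglia (SD, n = 3 each; log2 −0.35, SE 0.22, adjusted p = 0.866). The sign in Mettl14cKO rested on 1 library: without naive library 2 the log2 change was 0.02. The injury effect of Mettl14cKO minus that of wild type was 0.12 (95% interval −0.52 to 0.77, log2, adjusted p = 0.998), so the genotype difference was not shown to change with injury.

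Summed levels of some lists of cell type markers differed with genotype beside Nrg1. The summed level of 12 neuron markers, all tested, was 15740 to 16352 CPM at SNLD1 in Mettl14cKO against 17283 to 18700 CPM in wild type, and 14340 to 16427 CPM in naive Mettl14cKO against 17813 to 18517 CPM in naive wild type. That of 7 fibroblast markers was 5065 to 10561 CPM in Mettl14cKO against 3302 to 4014 CPM in wild type at SNLD1, and 4335 to 6402 CPM in naive Mettl14cKO against 3343 to 3732 CPM in naive wild type. Neuron sums were lower and fibroblast sums higher in every Mettl14cKO library than in any wild-type library of the same condition. Among single genes, groups were lower without overlap in 10.3% at SNLD1. They were higher without overlap in 9.66% at SNLD1 and 6.11% in naive ganglia. The share that was lower in naive ganglia is not given here, so the naive neuron sums have no such share beside them. The 8 satellite glia markers summed to 1145 to 1416 CPM in Mettl14cKO and 1815 to 2326 CPM in wild type at SNLD1, and overlapped in naive ganglia (1131 to 2641 CPM in Mettl14cKO against 2050 to 2549 CPM in wild type). The 10 markers of myelinating Schwann cells overlapped in both conditions, and no marker of these 4 lists was at 0 in all libraries of a group. Sums for non-myelinating Schwann cells, macrophages, neutrophils, endothelial and mural cells and skeletal muscle overlapped in both conditions too. A sum can be carried by its most abundant genes, and single markers are not given here. The part of these shifts in the Nrg1 difference was not tested.

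The genes whose log2 levels ran most like Nrg1 over the 12 libraries were Pam (Pearson r = 0.964), Cbln2 (0.943), Actr1a (0.933), 2310057M21Rik (0.932) and Mirc35hg (0.931). These were the 5 highest of the 9561 tested genes that averaged at least 5 CPM, and the correlation spans the 4 groups, so it largely follows genotype. Pam, an enzyme that amidates neuropeptides, averaged 38.6 CPM at SNLD1 in Mettl14cKO against 11.7 CPM in wild type, and 47.9 CPM in naive Mettl14cKO against 13.0 CPM in naive wild type. Nrg1 spans 1084158 bases of chromosome 8 (chr8:31807452-32891609, GRCm38.p6). Of the 35 other tested genes within 5 Mb of it, 1 was called between genotypes at SNLD1 and 2 in naive ganglia, all higher in Mettl14cKO. Over all tested genes, 0.948% were called higher at SNLD1 and 0.173% in naive ganglia. AI429214, 4.1 Mb away, stood at 5.05 to 12.1 CPM in Mettl14cKO against 0 to 0.307 CPM in wild type at SNLD1 (adjusted p = 0.000538, edgeR). In naive ganglia it stood at 5.71 to 18.5 CPM in Mettl14cKO against 0.0967 to 0.228 CPM in wild type (adjusted p = 0.000228). Lonrf1, 3.32 Mb away, passed in naive ganglia (log2 1.04, adjusted p = 0.0195) and missed the threshold at SNLD1 (log2 0.39, adjusted p = 0.353), while the difference between conditions passed for no gene. The median over the 35 genes was 0.04 at SNLD1 and 0.17 in naive ganglia (log2).

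**Figure D2:**
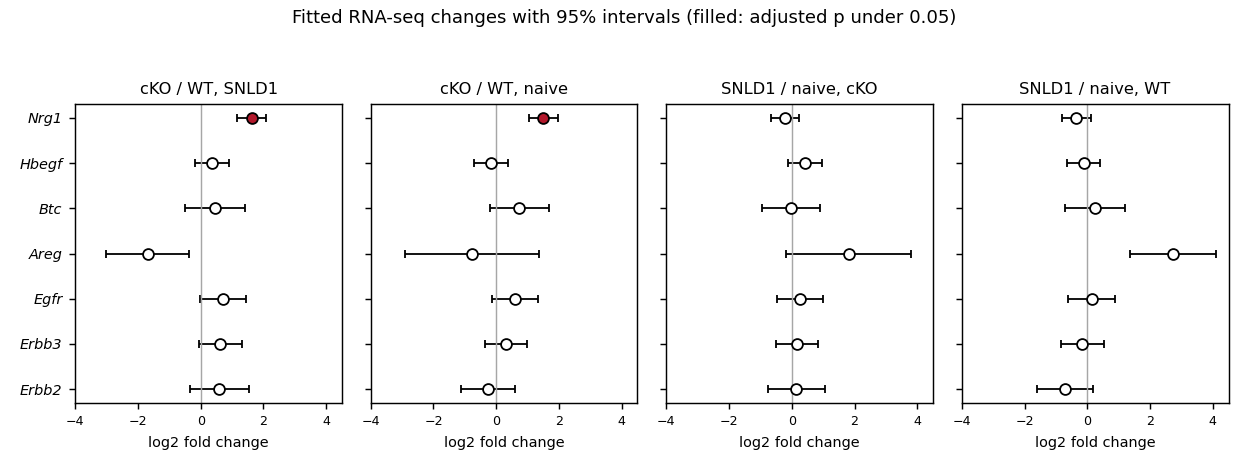
Fitted log2 fold changes (horizontal axis) of the 7 tested genes in 4 comparisons, with 95% intervals; filled points passed at an adjusted p under 0.05. Nrg1 is the only filled point, in both comparisons of genotypes, and Areg has the widest intervals.

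Areg, a ligand of EGFR, was the member with the largest fitted injury change in wild type, from few reads. It had 17, 13 and 12 counts in wild-type SNLD1 libraries, against 1, 3 and 4 counts in wild-type naive libraries. In Mettl14cKO it had 3, 7 and 1 counts at SNLD1, against 2, 0 and 1 counts in naive libraries. The wild-type groups did not overlap, as was so for 6.08% of all genes in that direction, and the Mettl14cKO groups did. The fitted change in wild type was 6.65-fold (95% interval 2.58 to 17.1, log2 2.73, SE 0.65), with an adjusted p of 0.0515, just short of the threshold. It passed with no filter on low counts (adjusted p = 0.0167) and with only the 6 wild-type libraries in the fit (0.0482). It missed the threshold in the other settings and with any 1 library left out (log2 2.34 to 3.03, adjusted p 0.0801 to 0.300, edgeR). In Mettl14cKO the fitted change was 3.52-fold (log2 1.81, SE 0.95, adjusted p = 0.522). With any 1 library left out its log2 value lay between 1.04 (without SNLD1 library 2) and 2.70 (without naive library 1). At SNLD1 Areg stood at 0.553 ± 0.423 CPM in Mettl14cKO and 1.85 ± 0.653 CPM in wild type (SD, n = 3 each), groups that did not overlap, as was so for 10.3% of genes in that direction, but without a call (log2 −1.69, SE 0.62, adjusted p = 0.203, and −2.47 to −1.21 with any 1 library left out). The difference between the 2 injury effects was −0.92 (log2, 95% interval −3.83 to 1.99, adjusted p = 0.998), an interval that holds both no difference and a large one. The inputs of MeRIP-seq, separate wild-type libraries, gave 3 and 127 counts (3.57 and 7.79 CPM) at SNLD1, against 1 and 13 counts (0.129 and 1.32 CPM) in naive ganglia. Both SNLD1 inputs were above both naive inputs, as in 6.17% of genes there, again without a call (log2 2.97, SE 1.95, adjusted p = 1).

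The Areg promoter is shown because Areg had the largest fitted injury change of the members and its promoter holds TGACGTCA, the cAMP response element, a motif that factors of the CREB and ATF families bind. The window is chr5:91139349-91139648 (plus strand, GRCm38.p6, from RefSeq), the 250 bases before the gene's start and 50 after, with that motif in capitals.
Areg promoter: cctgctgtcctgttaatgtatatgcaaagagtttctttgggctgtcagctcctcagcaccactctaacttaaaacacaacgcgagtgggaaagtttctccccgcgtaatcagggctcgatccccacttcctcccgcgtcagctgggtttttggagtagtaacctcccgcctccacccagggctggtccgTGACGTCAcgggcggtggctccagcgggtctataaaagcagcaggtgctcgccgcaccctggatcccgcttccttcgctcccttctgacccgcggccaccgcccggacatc
The motif begins 61 bases before the start. Searched on both strands, it occurs in 588 of 32851 promoter windows of this length, or 1.79%. The AP-1 motif TGANTCA, found in 7.81% of windows, is not in this window, and neither motif is in the windows of Btc, Egfr, Erbb2 or Erbb4, the other members in the table of promoters. A match of letters is a description and not a site of binding.

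The other ligands showed no call. Hbegf stood at 7.10, 6.48 and 6.31 CPM in Mettl14cKO at SNLD1, against 5.37, 4.35 and 5.74 CPM in wild type at SNLD1. The groups did not overlap, as in 9.66% of genes in that direction (log2 0.36, SE 0.25, adjusted p = 0.548). Within Mettl14cKO its SNLD1 libraries were also above the naive ones, which had 6.13, 5.06 and 3.72 CPM, as in 8.32% of genes (log2 0.42, adjusted p = 0.600). Wild-type naive libraries had 5.61, 5.86 and 5.25 CPM, so wild type showed no such order. Btc stood at 3.55, 2.82 and 1.40 CPM in Mettl14cKO and at 1.99, 1.03 and 2.56 CPM in wild type at SNLD1 (log2 0.47, SE 0.45, adjusted p = 0.694). In naive ganglia it stood at 3.14, 3.14 and 1.61 CPM in Mettl14cKO and at 1.16, 2.18 and 1.44 CPM in wild type (log2 0.73, SE 0.45, adjusted p = 0.806). Groups overlapped in both, with the lowest Mettl14cKO library inside the wild-type range. Nrg2 had 0 or 1 counts in every Mettl14cKO library and 0 to 2 in every wild-type library, and was not tested. The smallest and largest RNA-seq totals put 3 counts, about the upper 95% limit of counting error for a count of 0, at 0.526 and 0.237 CPM.

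No receptor passed in RNA-seq. Erbb3, the neuregulin receptor of Schwann cells, stood at 3.37, 4.23 and 3.93 CPM in Mettl14cKO at SNLD1, against 2.15, 2.63 and 2.68 CPM in wild type at SNLD1. These groups did not overlap (9.66% of genes in that direction), and the fitted difference was 1.54-fold (95% interval 0.960 to 2.47, adjusted p = 0.403). In naive ganglia Erbb3 overlapped, at 3.49 ± 1.17 CPM in Mettl14cKO and 2.76 ± 0.555 CPM in wild type (SD, n = 3 each). Erbb2, its signalling partner, stood at 0.766, 1.03 and 1.22 CPM in wild type at SNLD1, against 1.74, 1.50 and 1.75 CPM in naive wild type. All 3 lesion libraries were lower, as in 4.95% of genes (log2 −0.71, SE 0.42, adjusted p = 0.828), from 5 to 23 counts a library. The MeRIP-seq inputs of wild type overlapped, with the opposite sign for Erbb2 (log2 0.97, SE 1.10). They had 1.19 and 7.18 CPM at SNLD1, against 2.19 and 2.53 CPM in naive ganglia. In Mettl14cKO, Erbb2 averaged 1.53 ± 0.405 CPM at SNLD1 and 1.37 ± 0.559 CPM in naive ganglia (SD, n = 3 each), with overlap. Its injury effect in Mettl14cKO minus that in wild type was 0.86 (log2, 95% interval −0.42 to 2.13, adjusted p = 0.998).

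Egfr, the receptor of Areg, averaged 6.34 ± 1.37 CPM in Mettl14cKO and 3.77 ± 1.72 CPM in wild type at SNLD1 (SD, n = 3 each; log2 0.72, SE 0.35, adjusted p = 0.360). In naive ganglia it averaged 5.22 ± 1.52 CPM in Mettl14cKO and 3.48 ± 0.754 CPM in wild type (log2 0.60, SE 0.35, adjusted p = 0.778), and both comparisons overlapped. Erbb4, a neuregulin receptor, had 3, 0 and 1 counts in Mettl14cKO at SNLD1, 0, 0 and 1 in naive Mettl14cKO, 0, 0 and 1 in wild type at SNLD1, and 3, 2 and 3 in naive wild type. It was not tested. The genes whose levels ran most like Erbb3 over the 12 libraries were Ctgf (r = 0.902), Fam107a (0.868), Grpel2 (0.858), Pon2 (0.852) and Galnt16 (0.845).

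Of the other genes of the pathway, 1 passed the test in RNA-seq, Sos1. Of 6 other ErbB ligands, 3 were tested (Nrg3, Egf and Tgfa) and none passed in any comparison. Nrg3, a neuregulin that binds ErbB4, averaged 8.24 CPM in Mettl14cKO and 11.2 CPM in wild type at SNLD1 (log2 −0.44, SE 0.23, adjusted p = 0.403), and 11.1 CPM in naive Mettl14cKO and 9.03 CPM in naive wild type (log2 0.29, adjusted p = 0.880). Of 8 genes that shed or process the ligands, 7 were tested and none passed. The nearest was Nrd1, a protease that helps ADAM17 and BACE1 cut ligand precursors, at 46.0, 46.4 and 50.4 CPM in Mettl14cKO against 67.9, 72.1 and 67.7 CPM in wild type at SNLD1 (log2 −0.54, SE 0.14, adjusted p = 0.0598). In naive ganglia the smallest p of that list was of Adam17, the main sheddase of EGFR ligands (log2 −0.53, SE 0.27, adjusted p = 0.690). Of 10 genes listed as negative regulators of the receptors, 9 were tested and none passed. Lrig2, a membrane protein of the Lrig family, had the smallest p of its list in both comparisons of genotypes. It averaged 17.3 CPM in Mettl14cKO and 29.5 CPM in wild type at SNLD1 (log2 −0.77, SE 0.22, adjusted p = 0.0912), and 17.2 CPM in naive Mettl14cKO and 32.5 CPM in naive wild type (log2 −0.93, SE 0.22, adjusted p = 0.117). For injury the smallest p was of Lrig1, of the same family, in Mettl14cKO, with 3.73 CPM at SNLD1 and 1.502 CPM in naive ganglia (log2 1.29, SE 0.42, adjusted p = 0.221), and of Cbl, which marks activated receptors for breakdown, in wild type (log2 −0.78, adjusted p = 0.649).

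All 12 adaptors and first kinases were tested, and 1 of them passed in 1 comparison: Sos1, the exchange factor that loads Ras after Grb2 binds a receptor. The comparison was injury in Mettl14cKO, where 0.685% of all tested genes passed. Sos1 fell to 30.7, 24.1 and 30.6 CPM at SNLD1, against 51.6, 45.4 and 44.3 CPM in naive libraries (log2 −0.73, SE 0.16, adjusted p = 0.0457). That call was lost with only the 6 Mettl14cKO libraries in the fit (0.0990) and with any 1 of them left out (0.0715 to 0.225), while the log2 change stayed between −0.79 and −0.62. In wild type Sos1 averaged 42.6 CPM at SNLD1 and 43.4 CPM in naive ganglia (log2 −0.03), and the difference of the 2 injury effects did not pass (−0.70, SE 0.23, adjusted p = 0.998). The median log2 change of the 4 lists lay between −0.44 and 0.13 for genotype and between −0.16 and 0.27 for injury, where that of all tested genes lay between −0.02 and 0.01.

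**Figure D3:**
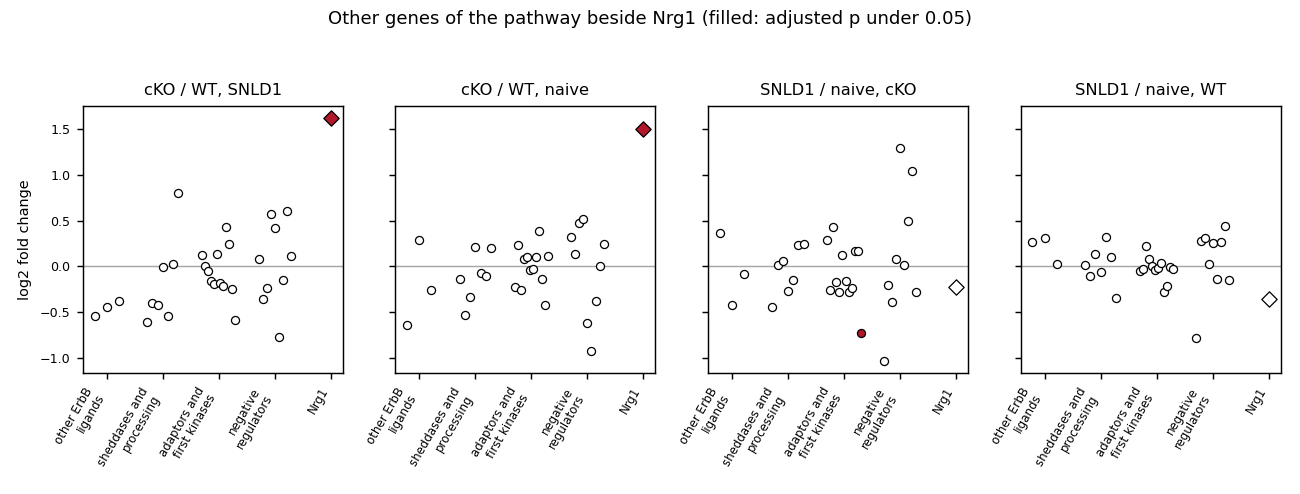
Log2 fold changes (vertical axis) of the tested genes of 4 pathway lists and of Nrg1 (diamond) in 4 RNA-seq comparisons; each circle is a gene, and filled symbols passed at an adjusted p under 0.05. Nrg1, at 1.62 and 1.49, lies above every circle in the comparisons of genotypes, and Sos1, at −0.73, is the 1 filled circle.

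In MeRIP-seq 8 of the 9 genes were tested (all but Erbb4), and none was called for IP over input. No gene at all was called by edgeR in either condition (0% of 14705), with 608 genes (4.13%) at SNLD1 and 915 (6.22%) in naive ganglia at an unadjusted p under 0.05, no member among them, and DESeq2 called 0 and 1 genes. Erbb2 had the clearest order. It stood at 18.5, 32.8 and 10.7 CPM in SNLD1 IP libraries, against 1.19 and 7.18 CPM in SNLD1 inputs. In naive ganglia it stood at 11.2, 15.1 and 6.15 CPM in IP libraries, against 2.19 and 2.53 CPM in inputs. Every IP library was above every input in both conditions, as in 10.3% of genes at SNLD1 and 12.7% in naive ganglia. The fitted ratio was 4.40 at SNLD1 (95% interval 0.913 to 21.2, adjusted p = 0.791) and 4.49 in naive ganglia (95% interval 0.930 to 21.7, adjusted p = 0.710). Without the IP libraries numbered 3 it was 2.46 and 2.45 on the log2 scale (SE 1.21 and 1.22, adjusted p = 0.334 and 0.338), from 2.14 and 2.17 with them. With any 1 library left out it lay between 1.50 and 4.09 at SNLD1, the highest without SNLD1 input 2, and between 1.87 and 2.45 in naive ganglia, without a call. The SNLD1 input numbered 1 held a single Erbb2 count.

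Nrg1 was higher in IP libraries 1 and 2 than in both inputs in each condition, and IP library 3 lay among the inputs. At SNLD1 the IP libraries had 72.7, 66.2 and 25.0 CPM, against 27.3 and 23.4 CPM in inputs. In naive ganglia they had 84.6, 60.3 and 33.0 CPM, against 41.7 and 32.6 CPM in inputs. The fitted log2 ratio was 1.11 at SNLD1 (SE 0.81, adjusted p = 0.791) and 0.68 in naive ganglia (SE 0.79, adjusted p = 0.799). Without the IP libraries numbered 3 it was 1.46 (SE 0.81, adjusted p = 0.389) and 0.97 (SE 0.79, adjusted p = 0.558). In that fit 117 genes passed at SNLD1 (0.806% of 14522) and 259 in naive ganglia (1.78%), none of them a member.

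Hbegf stood at 44.5, 22.1 and 26.3 CPM in SNLD1 IP libraries, against 5.94 and 17.1 CPM in inputs, without overlap (10.3% of genes; log2 1.38, SE 0.92, adjusted p = 0.791). In naive ganglia it had 28.2, 17.0 and 13.0 CPM in IP libraries, against 6.70 and 13.4 CPM in inputs, with overlap (log2 0.95, SE 0.90, adjusted p = 0.765). Egfr was below both inputs in all naive IP libraries, as in 16.5% of genes (5.23, 1.89 and 0.911 CPM against 5.92 and 6.07 CPM; log2 −1.10, adjusted p = 0.790), but not at SNLD1 (log2 1.02, adjusted p = 0.823). Without the IP libraries numbered 3 the log2 ratio of Hbegf was 1.48 at SNLD1 and 1.18 in naive ganglia, and that of Egfr 1.48 at SNLD1 and −0.67 in naive ganglia. With any 1 library left out the SNLD1 ratio lay between 0.85 and 2.39 for Hbegf and between 0.16 and 2.35 for Egfr, and the naive ratio of Egfr between −2.19 and −0.67. Erbb3 had fitted log2 ratios of −1.50 at SNLD1 and −0.95 in naive ganglia (SE 1.40 and 1.32), with 1 naive input at 15.2 CPM and the other at 2.23 CPM, and of −1.37 and −0.51 without the IP libraries numbered 3. Nrg2 counts came mostly from IP libraries numbered 1, with 29 counts at SNLD1 and 106 in naive ganglia, against 0 to 7 in each other library. Areg had 12, 0 and 37 counts in SNLD1 IP libraries, against 3 and 127 in SNLD1 inputs, and 0, 0 and 7 in naive IP libraries, against 1 and 13 in naive inputs. Btc had 8, 0 and 9 counts in SNLD1 IP libraries, against 2 and 16 in inputs, and 3, 0 and 5 in naive IP libraries, against 21 and 0 in inputs. Fitted log2 ratios at SNLD1 and in naive ganglia were 2.32 and 3.05 for Nrg2, −1.42 and −0.33 for Areg, and −0.81 and −1.35 for Btc. Without the IP libraries numbered 3 they were 2.86 and 3.52 for Nrg2 and −0.96 and −2.74 for Btc, and −2.37 at SNLD1 for Areg, whose other naive IP libraries were both at 0. None of these was called. Areg and Btc overlapped between IP and input, and IP library 2, with the fewest counts, was at 0 for both ligands in each condition. Erbb4 had 9 counts in naive IP library 1 and 0 in the other 9 libraries, with an upper 95% limit of about 3 counts in each. None of the genes on the 4 pathway lists passed in MeRIP-seq. The change of the IP over input ratio with injury passed for no gene (30 genes, or 0.204%, at an unadjusted p under 0.05, no member, and 0 called by DESeq2); its log2 value was 0.43 for Nrg1 (95% interval −1.89 to 2.76) and −0.03 for Erbb2 (95% interval −2.59 to 2.54). Between SNLD1 and naive inputs no gene passed either (126, or 0.857%, at an unadjusted p under 0.05, no member, and 1 called by DESeq2). Nrg1 was lower in both SNLD1 inputs than in both naive inputs, as in 13.8% of genes (log2 −0.55). The fitted input change had the opposite sign to wild-type RNA-seq for Erbb2 (log2 0.97 against −0.71), Egfr (−0.61 against 0.14) and Hbegf (0.25 against −0.11). It had the same sign for Nrg1, Areg, Btc and Erbb3.

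**Figure D4:**
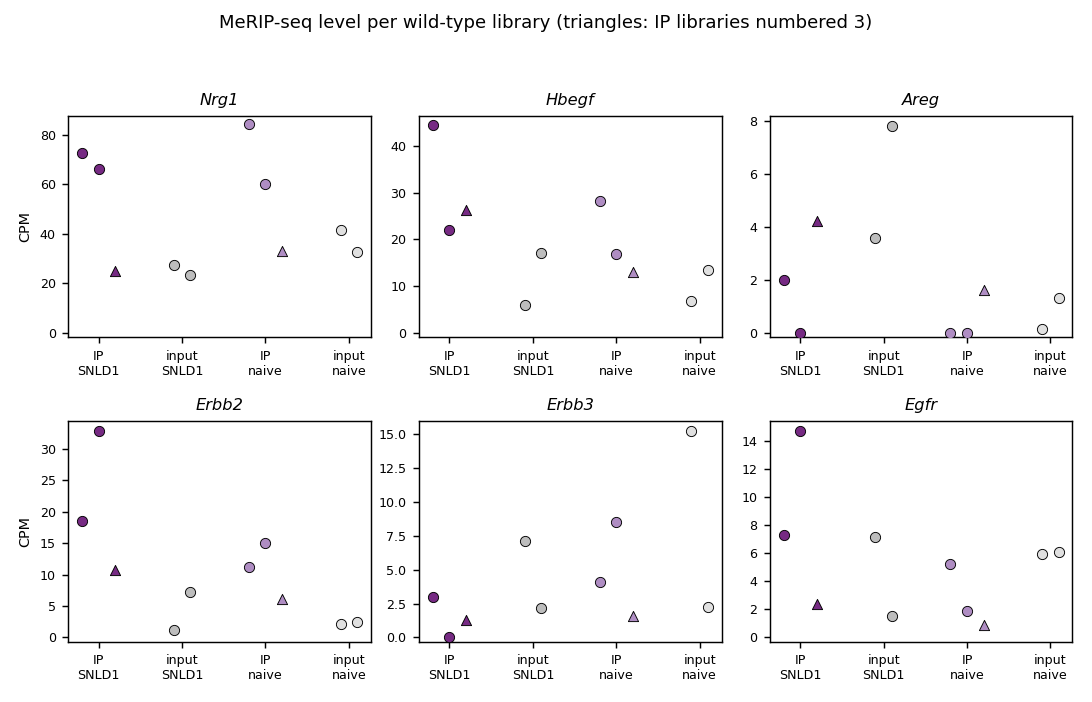
MeRIP-seq level in CPM (vertical axis, own scale per gene) of 6 genes in each wild-type library, IP beside input for each condition. Circles are libraries numbered 1 and 2, and triangles are the IP libraries numbered 3. For Erbb2 every IP symbol lies above every input of its condition, and for Nrg1 the triangles lie at the level of the inputs.

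The miCLIP lists placed sites in 5 of the 9 genes: Nrg1, Nrg2, Hbegf, Erbb2 and Erbb3. Of the RNA-seq genes tested, 43.4% of the 12703 found in the gene table had a site in either list, 36.3% in the SNL list and 31.2% in the naive list. Of the 7 members tested in RNA-seq, 4 had a site in either list (Nrg1, Hbegf, Erbb2 and Erbb3), 4 in the SNL list and 3 in the naive list. Nrg1 had 2 sites in the SNL list and 4 in the naive list, Hbegf 1 and 1, Erbb2 1 and 1, Erbb3 3 and 0, and Nrg2 0 and 4. With 1 library per condition these counts have no replicate check and carry no test. Each of the 17 entries rests on 1 mutated read among 2 to 6 reads, as do 89.7% of all SNL sites and 90.2% of all naive sites on 1 mutated read, and the median depth of all sites was 4 reads in both lists.

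The 1 site found in both lists was in Nrg1, at chr8:31918054, the GGACT site printed above. It had 1 mutated read of 4 in the SNL list (25.0%, 95% Clopper-Pearson interval 0.631 to 80.6%) and 1 of 6 in the naive list (16.7%, 0.421 to 64.1%), intervals that overlap and cover counting error only. Over the whole lists 3832 sites were shared, 20.5% of the SNL list and 26.5% of the naive list. Besides that site, 3 others of Nrg1 lay with it within 425 bases, between 110251 and 110675 bases from the low end of the gene's span. The fifth, at chr8:31818303, lay 10851 bases from that end. The 2 sites of Erbb2 lay 15 bases apart, 811 bases (SNL) and 796 bases (naive) before the 3′ end of its span (chr11:98412484-98437716, plus strand). The 3 sites of Erbb3 lay 1818, 2235 and 5396 bases from the low end of its span (chr10:128567523-128589635), all on the minus strand. Exons and UTRs were not annotated here. No member site was left when 3 mutated reads or 20 reads were required.

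**Figure D5:**
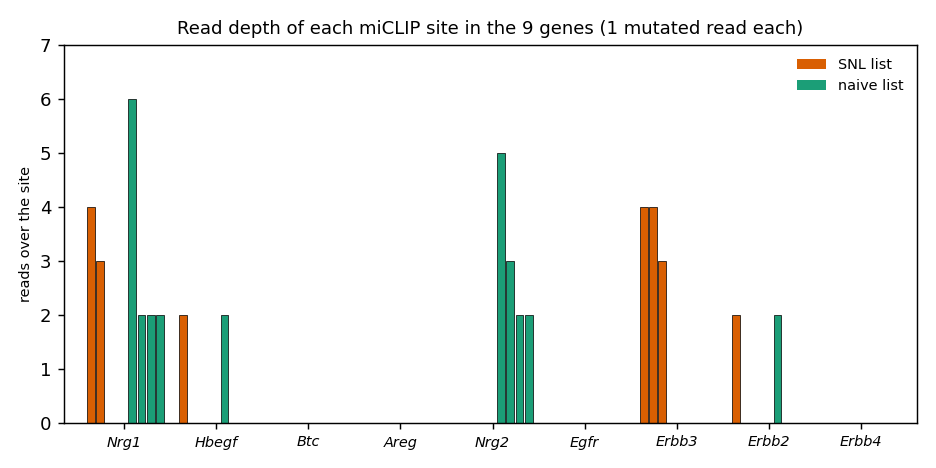
Reads over each miCLIP site (vertical axis) in the 9 genes; each bar is a site, orange for the SNL list and green for the naive list, and every site has 1 mutated read. No bar exceeds 6 reads, and Btc, Areg, Egfr and Erbb4 have none.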

How the data were processed

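The counts deposited by the authors, raw per gene symbol, came from 12 RNA-seq and 10 MeRIP-seq libraries. The miCLIP lists deposited by the authors hold for each site its reads, its mutated reads and their ratio (unit other). Per the labels' protocols, poly(A) RNA went into Smart-seq2 libraries. The submitters' processing notes name Trimmomatic, STAR, DESeq2 and mm10. Neither the counter and its use of strand nor the caller of sites is given in the sources used here.

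The fit of the counts, in R 4.3.3, used edgeR 4.0.16 (TMM scaling, filterByExpr by group, glmQLFit and glmQLFTest), 1 fit per table over all its libraries. This kept 13291 of 24421 genes in RNA-seq and 14705 of 24411 in MeRIP-seq. The Benjamini-Hochberg adjustment ran over all genes kept, with a threshold of 0.05 on the adjusted p for a call. The standard error was derived from the F statistic, and the steps were tested on simulated counts. The members, pathway lists, markers and alternatives were chosen with earlier results of these data known. Named were all members, pathway genes called or with the smallest p of their list, Mettl14, Atf3 and Sox11 as checks, and the 5 genes of highest correlation (log2 CPM, prior count 2) with Nrg1 and Erbb3. AI429214 and Lonrf1 were chosen after their values were seen.

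Sites were placed by span, and by strand where known, with the RefSeq table of GRCm38.p6, in Python 3.11.15. Promoters matched for 5 of 9 members, and sequences of Nrg2 and Hbegf are not reported here. Alternatives were DESeq2 1.42.0, its size factors in edgeR, no filter, only the libraries compared, a replicate block and leaving out each library. Chosen after seeing the data were the Y-linked share as covariate and the fits without the IP libraries numbered 3. Same-numbered IP libraries of the 2 conditions deviated together (correlations 0.468 to 0.734). Whether their numbers mark pairs is not labelled, and the main fits used no replicate block.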

Additional observations from a re-analysis of the deposited data

How the results depend on the processing

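Nrg1 was called between genotypes under every alternative run, in both conditions. With the replicate block its log2 difference was 1.62 at SNLD1 (adjusted p = 0.00188, edgeR) and 1.49 in naive ganglia (0.00553). In RNA-seq, deviations of same-numbered samples correlated at −0.0601 to 0.574, the highest for number 2 of wild type between SNLD1 and naive. The labels do not say whether a number marks a pair. The block changed no call of a member in either assay. Members called for injury in wild type came to 1, Areg, with no filter on low counts and with only the libraries compared, and to 0 in the other settings (adjusted p 0.0167 to 0.300 over all). Sites in members came to 0 when 3 mutated reads were required and to 0 when 20 reads were. Counts over all genes moved more: without a filter 256 genes were called for injury in wild type (136 with it), 281 in Mettl14cKO (91), 570 between genotypes at SNLD1 (194) and 191 in naive ganglia (38), and the difference of injury effects passed for 24 genes (0). DESeq2 called 188 for injury in Mettl14cKO, and 399 and 73 between genotypes. Other settings lowered the counts: with only the libraries compared, 126 genes were called between genotypes at SNLD1. With 1 library left out the calls between genotypes ranged from 37 to 262 at SNLD1 and from 12 to 44 in naive ganglia. For injury they ranged from 61 to 137 in wild type and from 48 to 116 in Mettl14cKO. For IP over input, the replicate block called 936 genes at SNLD1 and 1078 in naive ganglia, against 0 without it. No input is numbered 3, so the block's term for that number rests on IP libraries only. Deviations of same-numbered IP and input libraries correlated at −0.289 to −0.0173, so these counts are not read as enrichment. With the IP libraries numbered 3 left out, 13 and 252 genes were called with the block and 117 and 259 without it.

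These log2 values changed sign, each without a call. Without the IP libraries numbered 3 and with the block, Erbb3 in naive IP over input was 0.42 (−0.95 in the fit of all libraries). The change of IP over input with injury was 0.054 with the block, 3.03 without those libraries and 2.93 with both for Areg (−1.09), and 0.14, 0.0021 and 0.21 for Erbb2 (−0.03). With 1 library left out in turn, RNA-seq ranges crossed 0 for injury in wild type in Btc (−0.088 to 0.55) and Egfr (−0.14 to 0.44), and for injury in Mettl14cKO in Nrg1 (−0.44 to 0.024), Btc (−0.31 to 0.30), Erbb2 (−0.083 to 0.53) and Erbb3 (−0.051 to 0.42). They also crossed 0 for Hbegf between naive genotypes (−0.35 to 0.0059) and for the difference of injury effects in Nrg1 (−0.093 to 0.38). In MeRIP-seq they did so for naive IP over input in Btc (−2.75 to 4.87), Areg (−5.44 to 2.01) and Erbb3 (−1.76 to 1.02), and for the change with injury in Areg (−3.42 to 4.02), Erbb2 (−0.66 to 1.93) and Hbegf (−0.15 to 1.43). Between inputs they did so in Nrg2 (−4.23 to 1.26), Btc (−0.84 to 6.40), Hbegf (−0.76 to 0.82), Egfr (−1.95 to 0.24), Erbb2 (−0.99 to 1.61) and Erbb3 (−2.01 to 0.96). The cause was not tested. Depth limits Areg, Btc, Erbb2, Nrg2 and Erbb4 most, and for the smallest MeRIP-seq library 3 counts come to 3.54 CPM.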
